A study of Mus musculus with 32 samples.

Results

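Wnt ligands are secreted, lipid-modified glycoproteins that bind Frizzled receptors on the producing cell or its close neighbours. In the canonical branch, Frizzled acts with the co-receptors Lrp5 and Lrp6 to stabilise beta-catenin, which then works with TCF/LEF factors on target genes such as Axin2. Other ligands, with Wnt5a as the best known, act mainly through branches that do not need beta-catenin. In skin, Wnt signals drive hair follicle formation and growth, and basal keratinocytes of the interfollicular epidermis both make and receive them.

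Described here are 10 Wnt ligand genes (Wnt2, Wnt3, Wnt3a, Wnt4, Wnt5a, Wnt7a, Wnt7b, Wnt10a, Wnt10b and Wnt16) out of 19 Wnt genes and 55401 gene identifiers in the count tables. The 10 genes were selected on their measured levels across genotype and UV in these same mice. Their UV and genotype differences are therefore a description, and any count of them passing a threshold is not read as a test. The genes were matched by symbol, all 10 were found, and all 10 reached the filter of 1 cpm (a gene's counts scaled to the library total of the mouse) in at least 1 mouse, as did 15546 genes in all. Wnt7a reached it only in UV-exposed mice, so a UV difference was built into its passing. The other 9 Wnt genes are Wnt1, Wnt2b, Wnt5b, Wnt6, Wnt8a, Wnt8b, Wnt9a, Wnt9b and Wnt11, and 3 of them passed the filter.

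The study sequenced epidermal RNA from 32 hairless mice of a mixed SKH-1/SV129/BL6/J background, aged 10 to 14 weeks, with 4 mice in each of 8 groups of sex, genotype and treatment. WT and KO (PPARD-/-, lacking the nuclear receptor PPARbeta) littermates were either exposed once to 120 mJ/cm2 of UV and sampled 24 hours later (8 mice per genotype), or handled the same way without UV (8 mice per genotype, called control). Epidermis was separated from dermis before extraction, so the samples are bulk tissue, in which fewer cells of a type and less RNA per cell cannot be told apart. The extent of the deleted part was not given in the sources used here.

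Gene counts summed to 22919428 to 40653581 per mouse, and all 32 mice matched their labelled sex by Xist and Y-linked genes. Ppard, the targeted gene, was still counted in the mice labelled KO, at 70.3 to 88.9 cpm in KO controls against 87.3 to 105 cpm in WT controls and at 175 to 239 cpm against 252 to 326 cpm after UV. A count over the whole gene does not show which exons are left, so it does not check the genotype labels. The KO difference of Ppard on the log2 scale was -0.26 ± 0.07 (SE) without UV (adjusted P value = 0.156, edgeR) and -0.42 ± 0.07 after UV (adjusted P value = 0.00114, edgeR). Basal keratinocyte markers were present in every mouse, at a summed 5499 to 29950 cpm. KO UV female mouse 54F stood apart, with 2071 cpm of dermal fibroblast markers against 9.40 to 112 cpm in the other 31 mice, and summed smooth and skeletal muscle markers ranged from 0.509 to 2525 cpm over all mice.

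The genes lie on 6 chromosomes of GRCm38 (GENCODE M21). Wnt3 (chromosome 11, 103774150-103817957, plus strand) and Wnt7a (chromosome 6, 91363981-91411363, minus strand) showed large differences after UV in opposite directions, and the stretches before their annotated starts are shown as regulatory context for that contrast. Both are from RefSeq's GRCm38.p6 promoter windows, 5′ to 3′ on the gene's strand, and end at the base before the annotated start, at chr11:103773925-103774149 (plus strand) and chr6:91411364-91411603 (minus strand). Capitals mark GC boxes (GGGCGG on either strand) and CCAAT boxes (CCAAT on either strand).
Wnt3: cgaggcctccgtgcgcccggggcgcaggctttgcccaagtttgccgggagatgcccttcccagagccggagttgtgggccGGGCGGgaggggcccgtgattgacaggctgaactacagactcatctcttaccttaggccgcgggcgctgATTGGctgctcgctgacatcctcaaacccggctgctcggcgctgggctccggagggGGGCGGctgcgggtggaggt
Wnt7a: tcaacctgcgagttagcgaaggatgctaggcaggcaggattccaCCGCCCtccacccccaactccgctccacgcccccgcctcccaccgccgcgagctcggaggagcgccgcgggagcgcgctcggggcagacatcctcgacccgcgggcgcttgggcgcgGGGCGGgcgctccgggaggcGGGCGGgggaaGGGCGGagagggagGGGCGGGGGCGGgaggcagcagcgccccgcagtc
The Wnt3 stretch held 2 GC boxes and 1 CCAAT box, and the Wnt7a stretch held 6 GC boxes. Bases G and C made up 68.9% of the Wnt3 stretch and 77.1% of the Wnt7a stretch. Windows of 250 bases before to 50 after the start were given for 7 of the 10 genes and not for Wnt5a, Wnt7b and Wnt10a. A GC box was in 5 of those 7 windows (Wnt2, Wnt3, Wnt3a, Wnt4 and Wnt7a) and in 35.7% of all 32851 windows, and a CCAAT box was in 3 (Wnt2, Wnt3 and Wnt16) and in 37.4%. The AP-1 core TGANTCA (7.81% of all windows), the TCF core CTTTGA (16.0%), and the TATA box TATAAA (13.6%) were in none of the 7, with both strands read. The nuclear receptor half-site AGGTCA was in 1 of the 7 (Wnt16) and in 16.3% of all windows, and direct repeat 1, which is a tandem of that half-site, was in 0 of the 7 and in 0.0396%. These are letter matches in short windows and say nothing of binding.

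In control epidermis, Wnt3, Wnt4 and Wnt7b made up most of the Wnt ligand mRNA. Divided by exon length, the median level of WT controls was 38.2 cpm per kb for Wnt3, 25.4 for Wnt4 and 22.6 for Wnt7b, and the ranges of the 8 mice overlapped between Wnt3 and Wnt4 and between Wnt4 and Wnt7b. Wnt10a followed at 8.81 cpm per kb, below the range of Wnt7b and above that of Wnt5a (3.14), which overlapped that of Wnt3a (2.51). Wnt10b (0.782), Wnt2 (0.435), Wnt16 (0.101) and Wnt7a (0.0178) came last, each overlapping the next. KO controls had the same order except that Wnt2 stood ahead of Wnt10b, with overlapping ranges.

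After UV the order was different. In WT mice Wnt4 came first at 14.997 cpm per kb and Wnt10a next at 10.3, with overlapping ranges and both above Wnt3 at 4.49. Wnt3, Wnt3a (3.66), Wnt5a (1.92), Wnt7b (1.79) and Wnt7a (1.29) then formed a chain in which each range overlapped the next. Wnt10b (0.193), Wnt16 (0.0974) and Wnt2 (median 0) came last. In KO mice Wnt4 (16.4) and Wnt10a (12.7) again stood above the rest, and Wnt3a (4.91) and Wnt3 (4.51) overlapped.

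Summed over all 19 Wnt genes, the level per length was 103 cpm per kb in WT controls (median, 86.7 to 135) and 42.1 after UV (31.1 to 44.2). In KO mice it was 101 (84.0 to 110) and 46.1 (35.3 to 55.1). Wnt3 and Wnt7b together held a median of 56.9% of that sum in WT controls and 15.8% after UV, and 57.9% and 12.3% in KO mice. The share of Wnt10a went from 8.57% to 25.4% in WT mice and from 7.001% to 27.9% in KO mice. Wnt4 held 24.7% in WT controls and 35.5% after UV, although its own level was lower after UV, because the sum was lower. The 9 genes outside the list held a median of 2.10% in WT controls and 5.22% after UV.

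**Figure D1:**
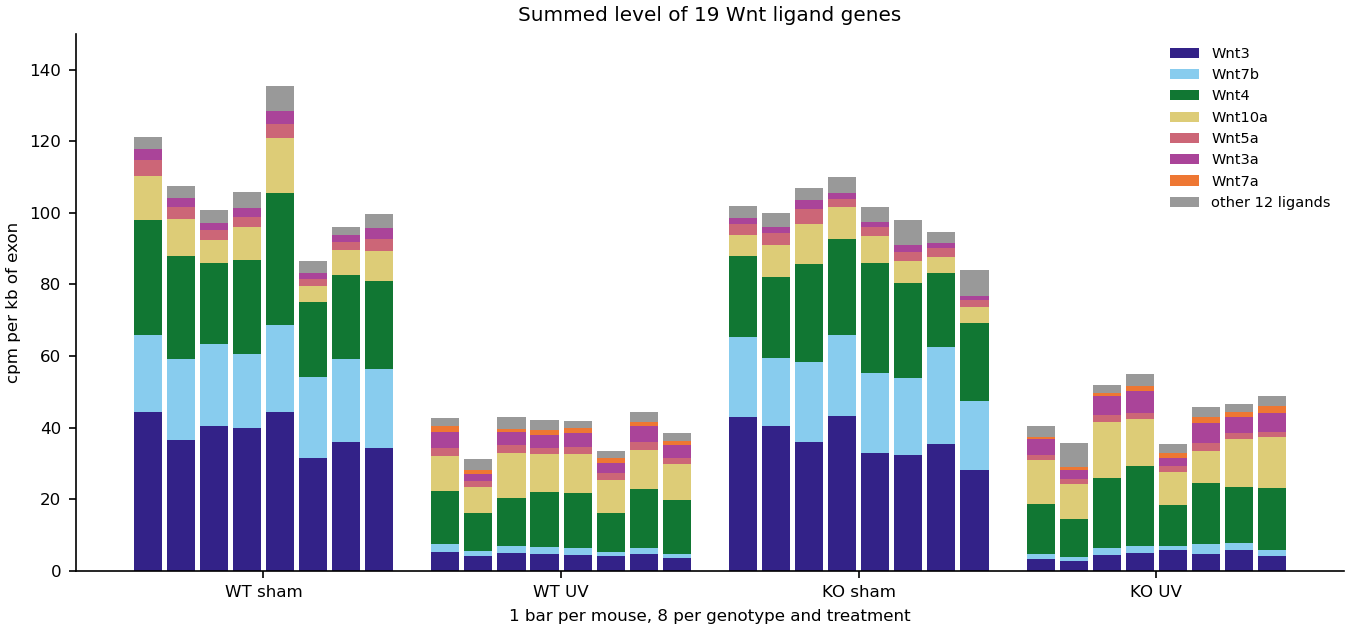
Level of 19 Wnt ligand genes in each mouse (stacked cpm per kb of exon, 1 bar per mouse, sham denotes control). Controls sit between 84.0 and 135 and UV mice between 31.1 and 55.1, and Wnt3 with Wnt7b make up a median of 56.9% of the bar in WT controls and 15.8% after UV.

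Taken gene by gene, 7 of the 10 genes passed an adjusted P value of 0.05 (edgeR) for UV in WT mice, 6 lower and 1 higher, against 36.5% of all genes tested lower and 34.5% higher. In KO mice 6 passed lower and 3 higher, against 33.5% lower and 37.3% higher. Levels of UV and control mice did not overlap in WT for 4 genes lower after UV (22.1% of all genes) and 1 higher (21.3%), and in KO for 2 lower (16.5%) and 1 higher (18.6%). Nothing is read from these counts, since the genes were chosen on the same contrasts. Wnt7a, counted as higher in both genotypes, reached the filter only in UV-exposed mice. The median log2 difference of the 10 was -0.80 in WT and -0.66 in KO, where that of all genes was -0.01 and 0.09.

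Wnt3, a canonical ligand, had the highest level per length in control epidermis. WT controls lay at 97.0 cpm (lowest), 118 (median) and 137 (highest), and WT UV mice at 11.2, 13.8 and 15.8. KO controls lay at 86.5, 110 and 133 cpm, and KO UV mice at 8.38, 13.9 and 17.98. No UV mouse of either genotype reached the lowest control. The fitted difference was -3.11 ± 0.11 on the log2 scale in WT (8.66-fold lower) and -3.02 ± 0.11 in KO (8.14-fold lower). Among the 4 arms it ran from -2.65 ± 0.15 in KO males to -3.40 ± 0.16 in KO females.

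Wnt7b, a canonical ligand of surface epithelia, was lower by a similar amount. WT controls lay at 102, 111 and 120 cpm (lowest, median and highest) and WT UV mice at 5.41, 8.79 and 11.5. KO controls lay at 92.0, 109 and 132 cpm and KO UV mice at 5.22, 8.08 and 13.6. The groups did not overlap in either genotype, and the difference was -3.70 ± 0.16 in WT (13.0-fold lower) and -3.72 ± 0.16 in KO (13.2-fold lower).

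Wnt4, which acts in epithelial and mesenchymal tissues through more than one branch, was lower to a smaller extent. WT controls lay at 88.1, 107 and 154 cpm and WT UV mice at 44.4, 62.9 and 69.8, without overlap. KO controls lay at 86.7, 103 and 128 cpm and KO UV mice at 44.8, 68.8 and 93.4, and KO UV female 74F was above the lowest 2 controls. The difference was -0.94 ± 0.14 in WT and -0.63 ± 0.14 in KO.

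Wnt5a, the main non-canonical ligand, lay at 16.0, 24.6 and 34.7 cpm in WT controls and at 12.7, 15.03 and 18.1 in WT UV mice. It lay at 15.2, 20.3 and 31.7 cpm in KO controls and at 11.1, 12.1 and 17.8 in KO UV mice. The groups overlapped in both genotypes, with differences of -0.66 ± 0.14 in WT and -0.68 ± 0.14 in KO.

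Wnt10b, a canonical ligand of hair follicle growth, was present at a few cpm. WT controls lay at 1.20, 2.66 and 3.17 cpm and WT UV mice at 0.0599, 0.657 and 1.66. KO controls lay at 1.45, 1.82 and 3.45 cpm and KO UV mice at 0.233, 0.642 and 2.52. In each genotype 1 UV mouse lay within the range of the controls, female 77F in WT and female 54F in KO. The difference was -1.85 ± 0.38 in WT and -1.42 ± 0.37 in KO, and -1.77 in KO without mouse 54F.

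Wnt2, a canonical ligand made by mesenchymal cells in many organs, varied most among mice of a group. WT controls held 0.666, 0.119, 1.30 and 2.59 cpm in females and 6.82, 0.552, 0.488 and 2.39 cpm in males. All 8 WT UV mice had 3 counts or fewer (0.109 cpm at most), and 6 of them had 0. The lowest WT control also had 3 counts, so the groups were separated by little at that end. With a floor of 3 counts per mouse, the mean of WT control males (2.56 ± 2.97 cpm, SD, n = 4) was at least 27.1-fold higher than in UV males, and that of females (1.17 ± 1.06 cpm) at least 10.9-fold higher. Over both sexes the mean of 1.87 ± 2.20 cpm (SD, n = 8) was at least 18.4-fold higher. These floors cover counting error only.

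In KO mice Wnt2 ranged from 0.0320 to 2.74 cpm in control females and from 2.55 to 11.2 cpm in control males. After UV, 7 of the 8 KO mice lay between 0 and 0.155 cpm (0 to 4 counts), and mouse 54F held 4.64 cpm (160 counts). With 2 of those 7 at 4 counts, the KO UV group lies just outside the floor and its fold is not a bound. The fitted difference was -3.21 ± 1.02 with mouse 54F and -5.43 without it. Mouse 54F is the one with the high fibroblast marker sum, and the part of dermal tissue in its Wnt2 level was not tested.

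Wnt7a, a ligand that acts through canonical and other branches, was the gene higher after UV without overlap. All 16 control mice had 3 counts or fewer (0.113 cpm at most). WT UV mice lay at 3.18, 4.09 and 4.73 cpm (lowest, median and highest, 89 to 152 counts) and KO UV mice at 2.13, 4.32 and 6.16 cpm (59 to 167 counts). With the floor of 3 counts per mouse, the UV mean of 4.05 ± 0.57 cpm (SD, n = 8) in WT was at least 37.6-fold higher, and that of 4.04 ± 1.42 cpm in KO at least 37.1-fold higher. By arm the bound was 40.2 in WT males, 35.0 in WT females, 45.5 in KO males and 28.6 in KO females.

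Wnt3a, a canonical ligand, lay at 4.64, 6.94 and 10.5 cpm in WT controls and at 5.16, 10.1 and 12.6 in WT UV mice. It lay at 3.19, 4.48 and 7.005 cpm in KO controls and at 6.30, 13.5 and 16.7 in KO UV mice. In WT the ranges largely overlapped (0.46 ± 0.21 on the log2 scale). In KO 6 of 8 UV mice were above the highest control (1.42 ± 0.22), and the other 2 were male 58M and female 54F.

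Wnt10a, a ligand whose loss causes ectodermal defects of hair, teeth and skin, was higher after UV in KO, by less than Wnt3a. In WT its difference was smaller than its SE. It lay at 11.0, 21.7 and 38.002 cpm in WT controls and at 17.8, 25.3 and 31.0 in WT UV mice, with a difference of 0.14 ± 0.19. It lay at 11.0, 17.3 and 27.9 cpm in KO controls and at 22.4, 31.5 and 37.996 in KO UV mice, with a difference of 0.76 ± 0.19. The ranges overlapped in both genotypes.

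Wnt16, a ligand that in many tissues acts outside the canonical branch, was near the limit of detection, between 0.0365 and 3.13 cpm over all mice (1 to 108 counts). Its UV difference was 0.36 ± 0.55 in WT and 0.71 ± 0.54 in KO, each near its standard error. The highest value, 3.13 cpm, was again in mouse 54F, and the KO difference without that mouse was 0.32.

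**Figure D2:**
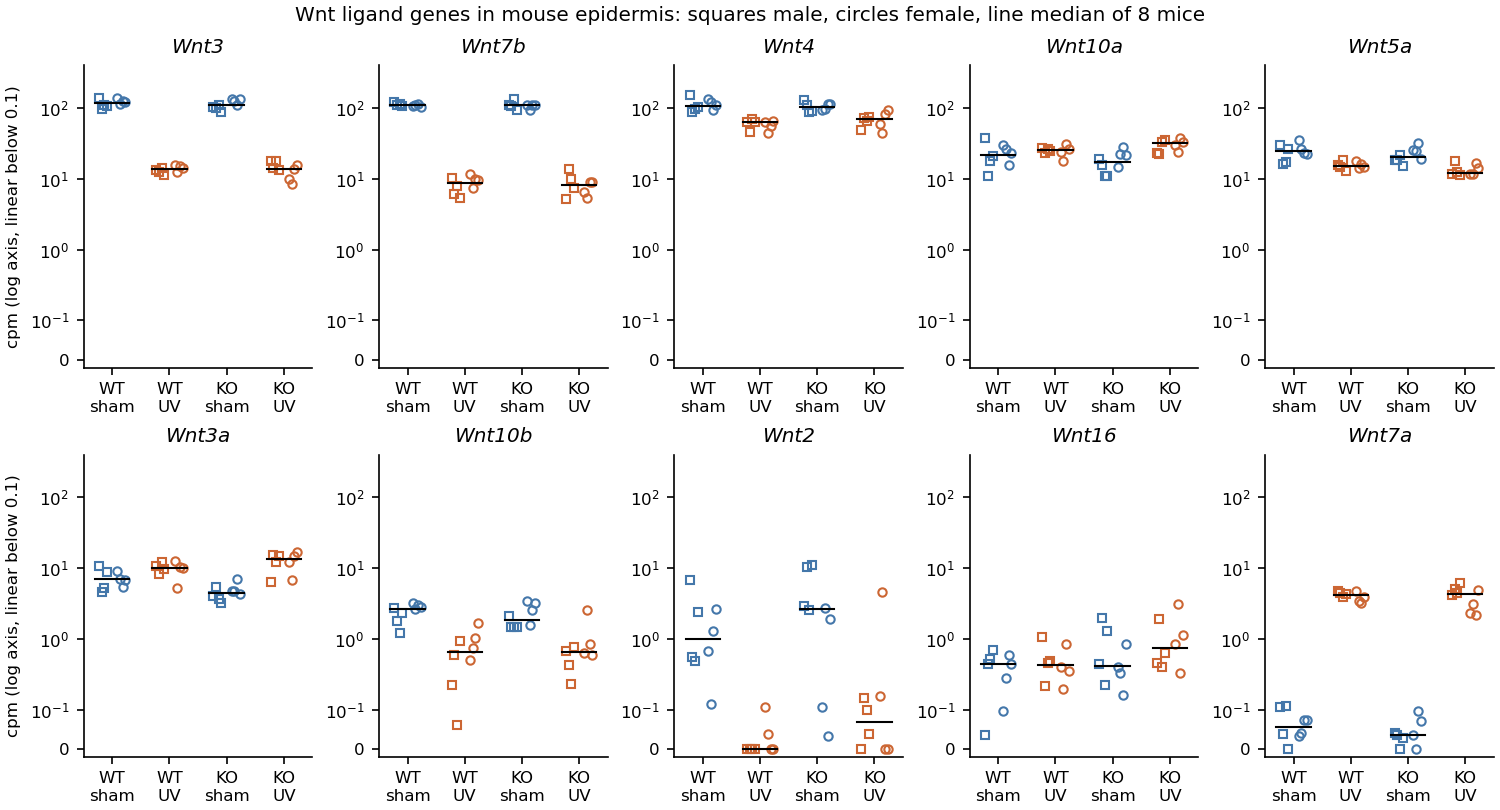
Levels of the 10 Wnt ligand genes in each of the 32 mice (cpm, log axis that is linear below 0.1; squares male, circles female, line the median of 8 mice, sham denotes control). Wnt3 and Wnt7b drop by about a decade after UV without overlap, and Wnt7a goes from at most 0.113 cpm to at least 2.13 cpm.

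Without UV, 0 of the 10 passed an adjusted P value of 0.05 for KO against WT (edgeR), where 0.206% of all genes passed. At an unadjusted threshold of 0.05 there was 1 (Wnt3a), and DESeq2 called 0, with 0.502% of all genes. Wnt3a differed by -0.64 ± 0.22, with a median of 4.48 cpm in KO and 6.94 cpm in WT controls and overlapping mice. Wnt16 (0.75 ± 0.55) and Wnt2 (0.70 ± 0.88) had higher fitted values in KO, each with a wide error. Wnt10a differed by -0.38 ± 0.19, and Wnt3, Wnt4, Wnt5a and Wnt7b lay between -0.18 and -0.03.

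After UV, edgeR again called 0 of the 10 for KO against WT, where 3.31% of all genes passed. The unadjusted threshold gave 2 (Wnt2 and Wnt16), and DESeq2 called 1 (Wnt2, 4.30 ± 1.17), with 7.18% of all genes. The edgeR difference of Wnt2 was 4.52 ± 1.67, and 2.28 without mouse 54F, where the other KO UV mice held at most 4 counts and the WT UV mice at most 3. Wnt16 differed by 1.11 ± 0.54, and by 0.68 without that mouse. Wnt3 differed by 0.00 ± 0.10, Wnt7b by -0.05 ± 0.15 and Wnt7a by -0.04 ± 0.26.

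For the interaction, the UV difference in KO minus that in WT, edgeR called 0 of the 10 and 0.765% of all genes. The unadjusted threshold gave 2 (Wnt3a and Wnt10a), and DESeq2 called 1 (Wnt3a, 0.93 ± 0.31), with 5.41% of all genes. The edgeR value was 0.97 ± 0.30 for Wnt3a and 0.62 ± 0.27 for Wnt10a. For Wnt3 it was 0.09 ± 0.14 and for Wnt7b -0.02 ± 0.20. The genotype contrasts were also used to choose the genes, so these values too are a description.

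**Figure D3:**
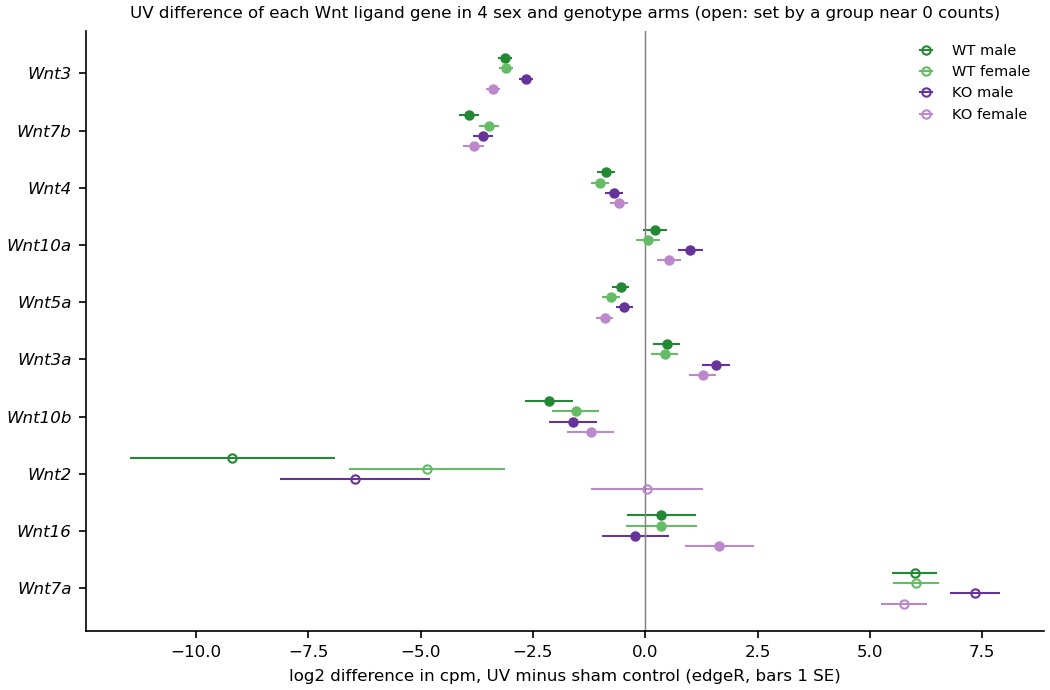
Fitted log2 difference in cpm between UV and control mice for each Wnt ligand gene in the 4 arms of sex and genotype (points, with 1 SE as bars). Wnt3 and Wnt7b lie between -3.92 and -2.65 in every arm, and the open points of Wnt2 and Wnt7a rest on a group near 0 counts, where the fitted value depends on the prior count, except that Wnt2 in KO females (0.04) is set by mouse 54F.

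Sex was not used to choose the genes, and females were tested against males. The P values measure only the spread between these mice. In controls 0 of the 10 passed (6.86% of all genes did), 2 at the unadjusted threshold, and DESeq2 called 0. The smallest adjusted P values were those of Wnt5a, at 0.36 ± 0.14 higher in females (adjusted P value = 0.103, edgeR), and Wnt3, at 0.24 ± 0.10 higher (adjusted P value = 0.133, edgeR). WT control male 43M held the highest Wnt2, Wnt3a, Wnt4 and Wnt10a (38.002 cpm) of the WT controls. It also held the highest Wnt5a of the WT control males (29.5 cpm). Without that mouse, Wnt5a (0.44, adjusted P value = 0.0368, edgeR) and Wnt10a (0.57, adjusted P value = 0.0342, edgeR) passed.

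After UV 0 of the 10 passed for sex (3.03% of all genes did), 1 at the unadjusted threshold, and DESeq2 called 1, with 7.69% of all genes. That gene was Wnt10b, at 1.13 ± 0.38 higher in females (adjusted P value = 0.0871, edgeR). Its levels were 0.509, 0.732, 1.02 and 1.66 cpm in WT UV females and 0.222, 0.582, 0.0599 and 0.930 cpm in WT UV males. KO UV female 54F held 2.52 cpm, and the other KO UV females (0.584 to 0.852 cpm) overlapped the KO UV males (0.233 to 0.775 cpm). Without mouse 54F the difference was 0.76 ± 0.35 (adjusted P value = 0.283, edgeR). Without WT UV male 71M the difference was 1.46 (adjusted P value = 0.0451, edgeR). The sex-by-UV interaction passed for 0 of the 10 and for 0% of all genes, with 2 of the 10 at the unadjusted threshold and 0 called by DESeq2.

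Within groups, several of the ligand genes varied together and with basal keratinocyte markers. Over the 32 mice, the deviation of log2 cpm from the mean of each mouse's own group was compared with that of the summed basal markers (Krt5, Krt14, Itga6, Itgb4, Col17a1 and Trp63). Wnt3a followed the basal sum with Pearson's r = 0.773 (permutation within groups, P value = 1e-05, the smallest the 100000 permutations can give, adjusted 0.00015 over 30 relations) and Spearman's rho = 0.835 (permutation P value = 1e-05, adjusted 0.00015). For Wnt4 r was 0.765 (permutation P value = 1e-05, adjusted 0.00015) and rho 0.794 (permutation P value = 1e-05, adjusted 0.00015). For Wnt10a r was 0.747 (permutation P value = 0.0001, adjusted 0.001) and rho 0.659 (permutation P value = 0.00068, adjusted 0.0068). Without the 2 mice whose basal deviations were farthest from the median deviation, r was 0.788 for Wnt3a, 0.753 for Wnt4 and 0.698 for Wnt10a.

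The other 7 genes did not pass the correction against the basal sum, with r from -0.176 for Wnt10b to 0.511 for Wnt5a (permutation P value = 0.0154, adjusted 0.115). Wnt3 had r = 0.187 and Wnt7b r = 0.241 with the basal markers. None of the 10 passed against suprabasal or dermal fibroblast markers. Of 13 marker lists only these and the basal list were compared, so a relation with other cell types was not tested. The highest r with the fibroblast markers was that of Wnt2, at 0.581 (permutation P value = 0.0596, adjusted 0.298). It was 0.373 without mice 54F and 52F, the 2 farthest from the median of the fibroblast sum. These values share library and RNA composition within each mouse, and the basal sum itself was higher after UV, with medians of 11573 cpm in WT controls and 22461 cpm after UV, and 9452 and 26467 cpm in KO mice. The part of basal cell content in the levels of Wnt3a, Wnt4 and Wnt10a was not tested.

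**Figure D4:**
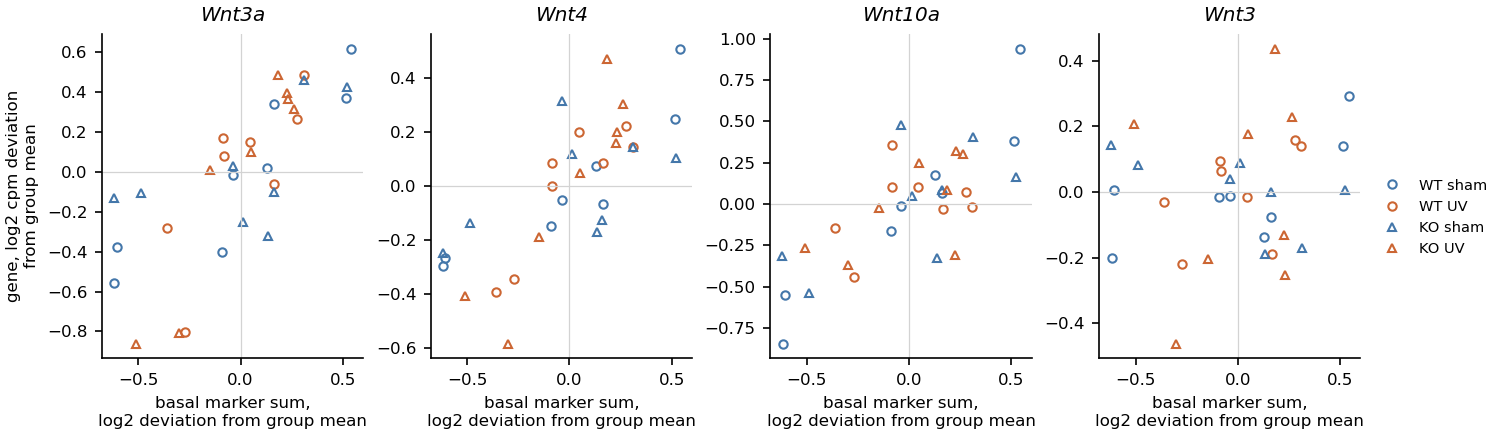
Deviation of each mouse from its group mean (log2) for 4 Wnt ligand genes against the summed basal keratinocyte markers, 1 point per mouse (circles WT, triangles KO, blue control, orange UV). Wnt3a (r = 0.773), Wnt4 (0.765) and Wnt10a (0.747) follow the basal markers and Wnt3 (0.187) does so weakly.

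Among the genes with a mean of 1 cpm or more, the closest to Wnt3a in such deviations over 32 mice was Wnt4 (r = 0.849), followed by Gnai1 (0.827) and Jag2 (0.823), and the closest to Wnt4 were Wnt3a, Gnai1 (0.822) and Krt5 (0.820). Wnt10a lay closest to Ccnd1 (0.921), Jag2 (0.896) and Krt5 (0.877). Wnt7b lay closest to Gm44618 (0.832), Tbc1d7 (0.793) and Dnmt1 (0.782), and Wnt3 to Serf1 (0.748), Rps9 (0.664) and Gdnf (0.650). Wnt5a lay closest to Pidd1 (0.742), Poc1a (0.734) and Serpinb10 (0.732), and Wnt7a to Cyp4f17 (0.650), Chid1 (0.626) and Ccdc84 (0.622). Wnt10b lay closest to Khk (0.754), Hoga1 (0.683) and Frg1 (0.667), Wnt2 to Neat1 (0.773), Dctn5 (0.750) and Fam198b (0.743), and Wnt16 to Lamp2 (0.807), Jrkl (0.752) and Cwf19l2 (0.746). These correlations are the highest of 13084 or 13085 genes compared and carry no test. Those of Wnt7a and Wnt2 also rest on mice near 0 counts. Wnt7a was at 3 counts or fewer in all controls, and Wnt2 in all WT UV mice. For Wnt2, mouse 54F alone deviated by 4.68 from its group mean.

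The pathway around the ligands was followed with 91 other genes in 9 lists, of which 72 were tested. In WT mice 37 fell and 18 rose after UV, and in KO mice 36 fell and 19 rose. That is 51.4% lower and 25% higher in WT, where all genes had 36.5% and 34.5%, and 50% and 26.4% in KO, where all genes had 33.5% and 37.3%. The median log2 difference of the 72 was -0.34 in WT and -0.23 in KO, against -0.01 and 0.09 for all genes. The lists were chosen with earlier results of these data known, so these shares and medians are a description. The shares of all genes are also the background for the counts by list below. Of the 72, 4 reached the filter only in controls (Wnt6, Ror1, Rspo3 and Frzb) and 6 only in UV mice (Ror2, Sfrp2, Sfrp4, Wif1, Tcf7l1 and Nkd1). For Wnt6, Ror1, Rspo3 and Wif1 a UV difference was built into their passing. Frzb, Ror2, Sfrp2, Sfrp4, Tcf7l1 and Nkd1 each passed through 1 mouse. Frzb passed through a control mouse and was called lower in KO, so its passing favoured that direction. Ror2 was called lower after UV in WT although the mouse it passed through was a UV mouse. All 10 together give 4 of the lower and 1 of the higher counts in WT, and 4 and 1 in KO. The 2 genotypes have separate controls, and both sets of values are given below from the same edgeR fit over all mice.

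Of the 3 other ligands tested, Wnt9a rose from a median of 0.740 to 2.51 cpm in WT (1.65 ± 0.24, adjusted P value = 7.81e-07) and from 0.910 to 2.35 cpm in KO (1.57 ± 0.24, adjusted P value = 1.77e-06). Wnt6, which reached the filter only in controls, had medians of 1.01 and 0.0898 cpm in WT controls and UV mice and of 1.05 and 0.0749 cpm in KO, and its test is not given. Wnt11, named beyond the rule to account for all 3, rose in KO (0.50 ± 0.18, adjusted P value = 0.0153) and was at 0.08 ± 0.18 in WT. The 6 untested ligands lay at 0.863 cpm or less in every mouse, and Wnt8b was at 0 in all of them.

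Of 5 genes of ligand acylation and release, 2 fell and 1 rose in each genotype. Porcn, which acylates Wnt proteins, fell from 39.2 to 10.8 cpm in WT (-1.86 ± 0.09, adjusted P value = 1.05e-15) and from 40.0 to 13.1 cpm in KO (-1.67 ± 0.09). Wls, the carrier that takes acylated ligands to the surface, fell from 85.9 to 35.3 cpm in WT (-1.20 ± 0.10, adjusted P value = 6.16e-11) and from 64.0 to 41.5 cpm in KO (-0.77 ± 0.10). Tmed10, a cargo receptor of the early secretory pathway, rose by little in WT (0.17 ± 0.04, adjusted P value = 0.000754) and did not pass in KO (0.09 ± 0.04).

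The receptors moved in both directions. Of 9 Frizzled genes tested, 4 fell and 3 rose in WT, and 3 fell and 2 rose in KO. Fzd10 fell from 109 to 49.99 cpm in WT (-1.19 ± 0.10, adjusted P value = 6.29e-11), and Fzd2 fell from 3.65 to 1.32 cpm (-1.61 ± 0.17, adjusted P value = 4.25e-09). Fzd5 rose from 14.2 to 39.0 cpm (1.47 ± 0.16, adjusted P value = 5.27e-09) and Fzd3 from 4.71 to 7.52 cpm (0.78 ± 0.17, adjusted P value = 0.00015). All 4 passed in the same direction in KO mice. Of 6 co-receptors 5 fell in WT, among them Ror2, which reached the filter through 1 UV mouse. Ror1, a receptor for Wnt5a that reached the filter only in controls, had a median of 4.93 cpm in WT controls and 0 after UV. Lrp5 fell from 179 to 92.7 cpm (-0.98 ± 0.10), and Lrp6 (-0.37 ± 0.08) and Ryk (-0.31 ± 0.07) fell by less.

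In the R-spondin, Lgr and E3 ligase list, 5 of the 9 genes were tested. All 5 were called lower in both genotypes, where 36.5% of all genes were lower in WT and 33.5% in KO. Among the 5 was Rspo3, which reached the filter only in controls. Lgr6, an R-spondin receptor of epidermal and follicle stem cells, fell from 36.4 to 0.496 cpm in WT (-6.27 ± 0.35, adjusted P value = 6.18e-15) and from 28.6 to 0.963 cpm in KO (-4.79 ± 0.32). Lgr4 fell from 28.2 to 6.57 cpm in WT (-2.13 ± 0.14). Znrf3 and Rnf43, ligases that remove Frizzled from the surface and are themselves Wnt targets, fell by 2.26 and 1.35 on the log2 scale in WT, with medians from 43.7 to 9.82 cpm and from 31.96 to 12.6 cpm.

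Inhibitors fell in 7 of 12 tested cases in WT and 6 of 12 in KO, with 1 rise in each. The rise was that of Wif1, which reached the filter only in UV mice. Frzb, among the falls in KO, reached the filter only through 1 control mouse. Kremen1, a receptor for Dickkopf inhibitors, fell from 176 to 64.3 cpm in WT (-1.50 ± 0.09, adjusted P value = 8.26e-15). Apcdd1, a membrane inhibitor that is itself a Wnt target, fell from 62.7 to 2.76 cpm (-4.45 ± 0.26, adjusted P value = 2.02e-14). Sostdc1, a secreted antagonist of Wnt and BMP signals, fell from 43.1 to 1.16 cpm (-5.09 ± 0.31, adjusted P value = 4.99e-14). Sfrp1, a soluble decoy for Wnt ligands, fell from 37.0 to 4.32 cpm (-3.15 ± 0.23, adjusted P value = 1.05e-12). All 4 fell in KO mice too, Apcdd1 by 3.38, Sostdc1 by 3.57 and Sfrp1 by 2.23 on the log2 scale.

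The cytoplasmic transducers moved less, with 6 rising and 3 falling of 12 in WT. Ctnnb1, which encodes beta-catenin, rose from 580 to 842 cpm (0.60 ± 0.06, adjusted P value = 7.67e-10) and Gsk3a, a kinase that marks it for destruction, from 97.1 to 158 cpm (0.75 ± 0.07, adjusted P value = 4.38e-10). Tnks2, which turns over Axin, rose by 0.49 ± 0.06 and Amer1 fell (-0.81 ± 0.10). Among 11 TCF/LEF factors and cofactors 6 fell and 3 rose. Bcl9l fell from 143 to 54.5 cpm (-1.35 ± 0.10), Bcl9 from 16.3 to 8.41 cpm (-0.98 ± 0.11) and Tcf7l2 from 10.3 to 4.17 cpm (-1.36 ± 0.13), while Pygo2 rose from 62.3 to 95.6 cpm (0.63 ± 0.06).

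The 9 tested target genes moved both ways, with 4 falling and 3 rising in WT and the same counts in KO. Axin2, the most general target, fell from 46.4 to 22.9 cpm in WT (-1.09 ± 0.08, adjusted P value = 6.7e-13) and from 41.8 to 20.04 cpm in KO (-1.10 ± 0.08). Tnfrsf19 fell from 103 to 15.7 cpm (-2.65 ± 0.12, adjusted P value = 5.95e-17) and Ascl2 from 4.15 to 1.07 cpm (-1.88 ± 0.19, adjusted P value = 9.02e-10) in WT. Cd44, a hyaluronan receptor with many other inputs, rose from 350 to 779 cpm (1.11 ± 0.11, adjusted P value = 4.51e-10). Ccnd1, named in addition as the gene that varied most closely with Wnt10a between mice, was higher as well, from 44.4 to 133 cpm (1.55 ± 0.16, adjusted P value = 2.33e-09).

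**Figure D5:**
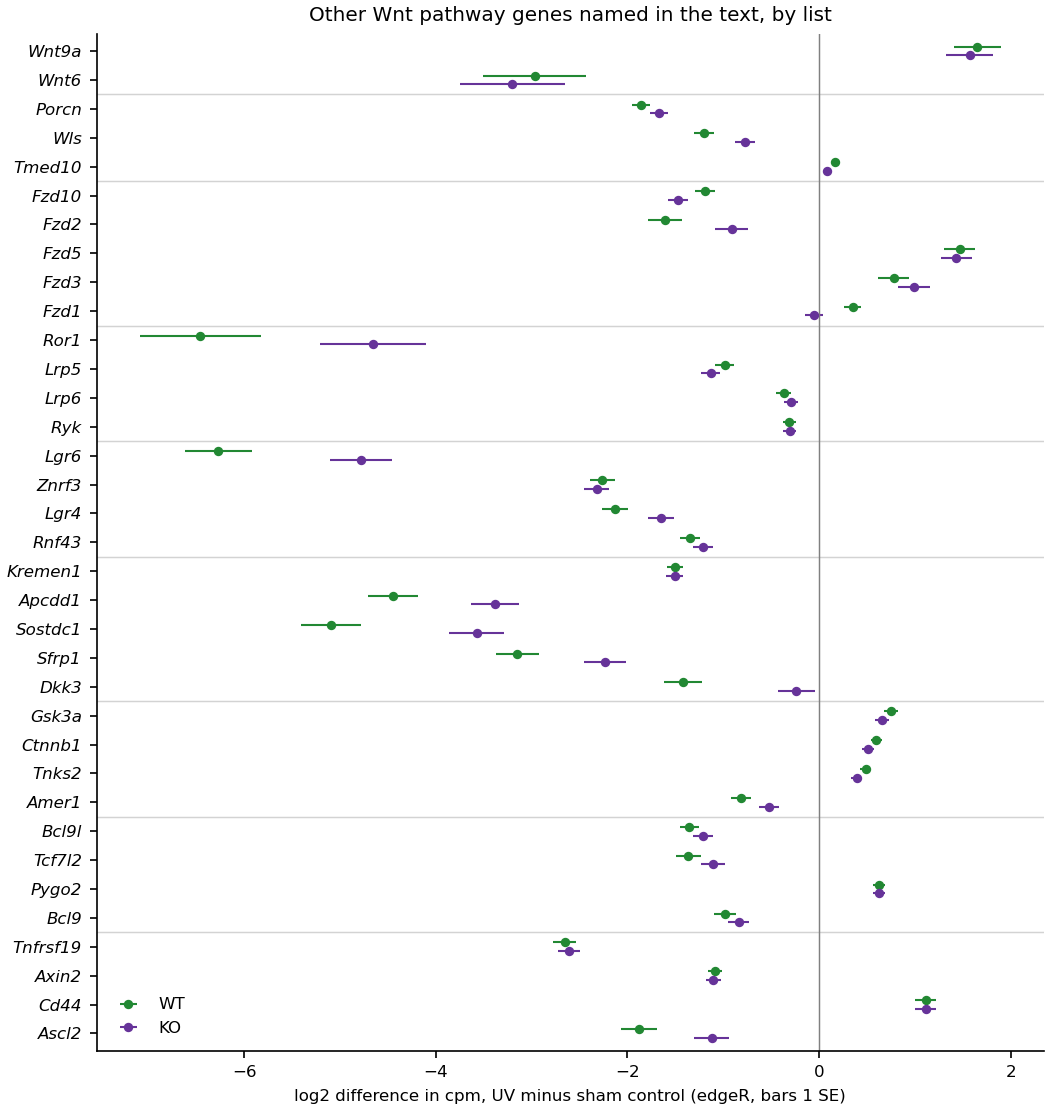
Fitted log2 difference in cpm between UV and control mice for the other Wnt pathway genes taken by the naming rule, by list (green WT, purple KO, bars 1 SE). Lgr6, Sostdc1 and Apcdd1 lie below -3 in both genotypes, and Wnt9a, Fzd5 and Cd44 lie above 1. Ror1 and Wnt6 reached the filter only in controls, so a UV difference was built into their passing.

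Of the 72 pathway genes, 0 passed for KO against WT without UV by edgeR, 8 at the unadjusted threshold, and DESeq2 called 1. After UV 2 passed. Fzd1 was lower in KO, at 38.6 cpm against 48.8 cpm (-0.39 ± 0.09, adjusted P value = 0.0229, edgeR). Sostdc1 was higher in KO, at 2.53 cpm against 1.16 cpm (1.19 ± 0.29, adjusted P value = 0.0273, edgeR), and its call was lost on leaving out KO UV male 72M, WT UV female 51F, or WT UV male 38M or 57M, with adjusted P values of 0.0562 to 0.0733 (edgeR). Without the 9 mice whose summed dermal fibroblast or muscle markers were above 1000 cpm, neither passed, at -0.43 ± 0.11 for Fzd1 (adjusted P value = 0.15, edgeR) and 1.36 ± 0.32 for Sostdc1 (adjusted P value = 0.118, edgeR). That fit has fewer mice and called 26 of 14767 genes (0.176%), against 514 of 15546 in all mice.

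For the genotype-by-UV interaction 1 of the 72 passed. Dkk3, a Dickkopf family member, fell in WT from 8.10 to 2.94 cpm (-1.42 ± 0.20, adjusted P value = 3.06e-07, edgeR) and lay at 5.02 and 4.10 cpm in KO (-0.24 ± 0.19, adjusted P value = 0.28, edgeR), a difference of 1.18 ± 0.27 (adjusted P value = 0.0368, edgeR). The call was lost in 17 of the 32 fits that left out 1 mouse.

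Markers of several other cell types moved with UV as well. Follicle stem cell and bulge markers had a median sum of 307 cpm in WT controls and 93.8 cpm after UV, and 232 and 107 cpm in KO. Of the 8 genes in that list, Lhx2 was at 3 counts or fewer in WT UV males. Hair matrix and shaft markers were not lower, with medians of 38.9 and 66.9 cpm in WT and 46.5 and 52.9 cpm in KO. Their sums ranged widely, from 13.4 to 553 cpm over all mice. Suprabasal markers went from 68274 to 16152 cpm in WT and from 74765 to 17265 cpm in KO. Of 6 dermal papilla markers, Corin, Sox2 and Alx4 were at 3 counts or fewer in all mice, and the median sum of the 6 was 41.3 cpm in WT controls and 2.35 cpm after UV, and 42.6 and 2.62 cpm in KO. Hey1 was also at 3 counts or fewer in WT control males, WT UV males and KO UV males, and Crabp1 in WT UV females. The sum thus rests on few of the listed genes and is not read as dermal papilla content. Neutrophil and monocyte markers rose in sum, from 34.2 to 407 cpm in WT and from 28.3 to 404 cpm in KO. Of the 6 genes in that list, which include S100a8, Ly6g was at 3 counts or fewer in all WT mice and all KO controls. The sum rests on the other genes and is not read as a measure of neutrophils. Langerhans cell markers went from 796 to 355 cpm in WT and from 679 to 421 cpm in KO, and dermal fibroblast markers from 34.6 to 13.2 cpm and from 53.8 to 22.2 cpm. T cell markers went from 145 to 28.02 cpm in WT and from 129 to 50.5 cpm in KO. The part of these cell populations in the ligand levels was not tested.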

How the data were processed

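Epidermal RNA of 32 mice was measured by stranded mRNA sequencing. The authors deposited 1 table per mouse of raw counts per gene, and the submitters' processing notes name bcl2fastq, cutadapt 1.8, STAR 2.5.3a, HTSeq 0.9.1 and GRCm38. Counts summed to 22919428 to 40653581 over genes, and reads in no gene (6.80 to 9.75%) were left out. Symbols and exon lengths came from GENCODE M21 (55141 of 55401 identifiers). Genes reaching 1 cpm in at least 1 mouse (15546) were fitted with edgeR 4.0.16 (R 4.3.3, TMM, quasi-likelihood) on 8 group means, with contrasts averaged over sexes and Benjamini-Hochberg adjustment. Values are log2 differences ± SE. DESeq2 1.42.0, limma 3.58.1, other filters and scalings, and leaving out each mouse were alternatives, and the fit was tested on simulated data. A group at 3 counts or fewer in every mouse gives a bound. Members and lists were chosen with earlier results of these data known. In each pathway list up to 4 genes with the smallest P values for UV in WT mice were named, plus any that passed for genotype or the interaction, and Wnt11 and Ccnd1 were added after their values were seen.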

Additional observations from a re-analysis of the deposited data

Results flagged for a closer look

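Among the ligand genes, 74 groups of 4 mice were checked for 1 mouse far from the other 3, and 5 were flagged, where chance flags about 1 in 20 groups. KO UV female 54F held 4.6368 cpm of Wnt2 and 2.5212 cpm of Wnt10b, each far above the other KO UV females. KO control female 60F held 92.02 cpm of Wnt7b, below the others of its group. KO control male 34M held 2.0787 cpm of Wnt10b and KO UV male 59M 1.9115 cpm of Wnt16, each above the others of its group. Among the pathway genes, the UV difference of Dkk3 was 1.18 log2 units higher in KO than in WT mice by the interaction term (adjusted P value = 0.0368, edgeR).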

How the results depend on the processing

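Of 50 ligand gene differences, 9 changed sign under some alternative, all between genotypes or for the interaction, and each was at most 0.62 of its SE from 0. Leaving out mouse 54F moved Wnt10b after UV from 0.23 to -0.16 for KO against WT, and the Wnt16 interaction from 0.36 to -0.08. No UV difference changed sign. With DESeq2, 1 ligand gene passed for KO against WT after UV, 1 for the interaction and 1 for sex after UV (each 0 with edgeR), and among pathway genes 1 passed for genotype without UV, 5 after UV and 6 for the interaction (0, 2 and 1 with edgeR), where DESeq2 called 0.502%, 7.18% and 5.41% of all genes. With limma-trend, and with no filter, 0 pathway genes passed for the interaction. Without the 9 mice of high dermal or muscle marker sums, an alternative chosen after seeing the data, 0 pathway genes passed for genotype after UV, where 0.176% of all genes did. Leaving out 1 mouse at a time gave 0 to 1 pathway genes for genotype without UV, 1 to 5 after UV and 0 to 3 for the interaction, and 0 to 2 ligand genes for sex in controls and 0 to 1 after UV. The fitted Wnt2 difference between genotypes after UV was 4.52, and 2.28 without mouse 54F. With the floor of 3 counts taken over the summed group, the bound was 109-fold for Wnt2 in WT males and 188-fold for Wnt7a in KO males. Depth limits Wnt2, Wnt7a and Wnt16, which lay at a few counts in some groups. No paired analysis was possible because the mouse labels share no number across groups that marks a pair.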
